A study of Mus musculus with 48 samples.

Results

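The genes of the mammalian G1/S switch were followed through single mouse embryos: the kinase genes Cdk4, Cdk6 and Cdk2, the D cyclin genes Ccnd1, Ccnd2 and Ccnd3, the E cyclin genes Ccne1 and Ccne2, the kinase inhibitor gene Cdkn1b and the retinoblastoma gene Rb1. They were chosen by symbol and are 10 of the 55421 genes in the deposited table. The embryos were C57BL6, at the 2-cell stage, and were collected 26 to 28 hours after fertilization. For the WT embryos the labels name no allele. The other group is named K49A, for a lysine-to-alanine change in the sperm packaging protein Protamine 1. Whether the father, the mother or both passed on or carried the change is not in the labels, nor is whether embryos shared a father, a litter or a collection day. Each embryo was placed whole in 1 well and read by Smart-seq2, a full-length cDNA method, so the p-values below measure the spread between embryos of unstated parentage. Of 24 wells per group, 12 WT and 17 K49A embryos reached the minimum of 100000 counts and were compared.

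D cyclins bind Cdk4 or Cdk6, and E cyclins bind Cdk2. These kinases phosphorylate the retinoblastoma protein, which holds E2F transcription factors in check until then, and p27, the product of Cdkn1b, inhibits them. In the mouse embryo the 2-cell stage is when the zygotic genome is broadly activated while maternal transcripts are cleared, so a transcript measured there may be maternal, zygotic or both, and these libraries do not separate the sources.

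The total was 421301 to 5309505 counts in WT and 105627 to 4947276 in K49A, with medians of 3787532.5 and 4034654. Of these, 10 WT and 14 K49A embryos had at least 1000000 counts and 12000 detected genes and are called deep below. The groups filled different plate rows, 1 to 4 for WT and 5 to 8 for K49A, and effects of row and genotype cannot be told apart. Each of columns 1 to 6 held both groups. The labelled stage was checked against a list of 8 genes transcribed at the 2-cell stage, all of which were counted: their summed level was 227 to 1516 CPM (counts scaled to the size of the library) in WT, with a median of 1083, and 90.7 to 1660 CPM in K49A, with a median of 675. All 7 listed oocyte genes were counted too, at 1169 to 3362 CPM in WT (median 2040) and 946 to 4720 CPM in K49A (median 2448).

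The start regions of Cdk4, Cdk2 and Ccne1 are shown because of values given below. Cdk4 had the largest fitted group difference of the 10, which did not pass the test, and Cdk2 and Ccne1 varied together. The sequences are RefSeq's, on GRCm38.p6, from 250 bases before to 50 bases after the RefSeq start, 5′ to 3′ on the gene's own strand. This start can differ from the end of the gene position given below, which is from another annotation. RefSeq start regions were found for 6 of the 10 genes. Capitals mark the motifs searched for. These were the E-box CACGTG, which reads the same on both strands and is bound by Myc family and other basic helix-loop-helix factors, the E2F forms TTTCCCGC, TTTGGCGC, TTTGCCGC and TTTCGCGC on either strand, and TATAAA on either strand.
Cdk4, chr10:127063285-127063584, plus strand: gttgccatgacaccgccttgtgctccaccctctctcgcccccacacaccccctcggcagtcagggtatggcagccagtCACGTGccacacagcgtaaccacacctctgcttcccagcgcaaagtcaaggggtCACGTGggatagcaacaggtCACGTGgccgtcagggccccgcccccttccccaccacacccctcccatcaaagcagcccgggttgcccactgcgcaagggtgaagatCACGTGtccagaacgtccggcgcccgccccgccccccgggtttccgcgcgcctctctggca
Cdk2, chr10:128705002-128705301, minus strand: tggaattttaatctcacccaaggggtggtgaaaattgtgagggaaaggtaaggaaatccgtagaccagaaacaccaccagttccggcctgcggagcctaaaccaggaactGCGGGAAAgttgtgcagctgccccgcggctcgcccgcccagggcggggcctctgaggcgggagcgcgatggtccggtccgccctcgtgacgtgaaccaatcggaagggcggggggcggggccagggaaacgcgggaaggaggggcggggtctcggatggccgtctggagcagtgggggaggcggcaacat
Ccne1, chr7:38107441-38107740, minus strand: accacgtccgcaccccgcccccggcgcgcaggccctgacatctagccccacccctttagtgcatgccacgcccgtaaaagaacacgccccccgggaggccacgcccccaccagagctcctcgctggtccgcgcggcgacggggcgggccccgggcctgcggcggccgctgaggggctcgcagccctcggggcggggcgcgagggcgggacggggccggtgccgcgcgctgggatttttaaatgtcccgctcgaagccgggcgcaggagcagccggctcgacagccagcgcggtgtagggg

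The Cdk4 window held 4 E-boxes, beginning at -172, -118, -98 and -11 bases from the start, where 7.15% of all 32851 RefSeq windows of this length held at least 1. The Cdk2 window held 1 E2F match, GCGGGAAA, beginning at -140 bases from the start, and 2.26% of all windows held such a match. In the Ccne1 window, of which 76% was G or C, none of the motifs was found in the exact forms listed. Other forms of these motifs were not searched for, so a site of another form may be present. The window of Cdk6 held 1 E-box, at -220 bases from the RefSeq start, and 1 TATAAA, which 13.6% of all windows held. That window, chr5:3343643-3343942, lies inside the gene position given below, chr5:3341485-3531008. No match was found in the windows of Ccnd3 or Cdkn1b. A match is only a run of letters in these windows, and says nothing of whether a factor bound there.

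Ccne1, the gene of cyclin E1, led the 10 genes by a wide margin, and Ccnd3 led the D cyclins. On the per-length scale of the deposited TPM (library-scaled counts also divided by transcript length), Ccne1 had a median of 305 TPM over the 29 embryos, above 97.1% of the 12456 tested genes. Ccnd3 followed at a median of 47.1 TPM, Cdk4 at 35.4 TPM, Cdk2 at 30.6 TPM and Ccne2 at 23.1 TPM, and Rb1 lay well below them at 6.20 TPM. Ccnd2, Ccnd1, Cdk6 and Cdkn1b made up the low end, with medians of 3.41, 3.19, 3.03 and 2.68 TPM. The length used for TPM was estimated for each library and can also move these levels.

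Only some steps in that order held from embryo to embryo. Ccne1 exceeded Ccnd3 in 26 of 29 embryos, and Ccne2 exceeded Rb1 in 26 of 29. Ccnd3 exceeded Cdk4 in 19 of 29. Cdk4 exceeded Cdk2 in 22 of 29, made up of 7 of 12 WT and 15 of 17 K49A embryos. Cdk2 and Ccne2 had no steady order, with Cdk2 the higher in 15 of 29, and the 4 lowest genes did not either: Ccnd2 exceeded Ccnd1 in 16 of 29, Ccnd1 exceeded Cdk6 in 12 of 29, and Cdk6 exceeded Cdkn1b in 12 of 29. Every gene had at least 1 count in 10 or more of the 12 WT and in 13 or more of the 17 K49A embryos. The number of embryos with a count did not differ detectably between groups for any of the 10 genes (Fisher's exact test, 2-sided, adjusted p = 1 for each).

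**Figure D1:**
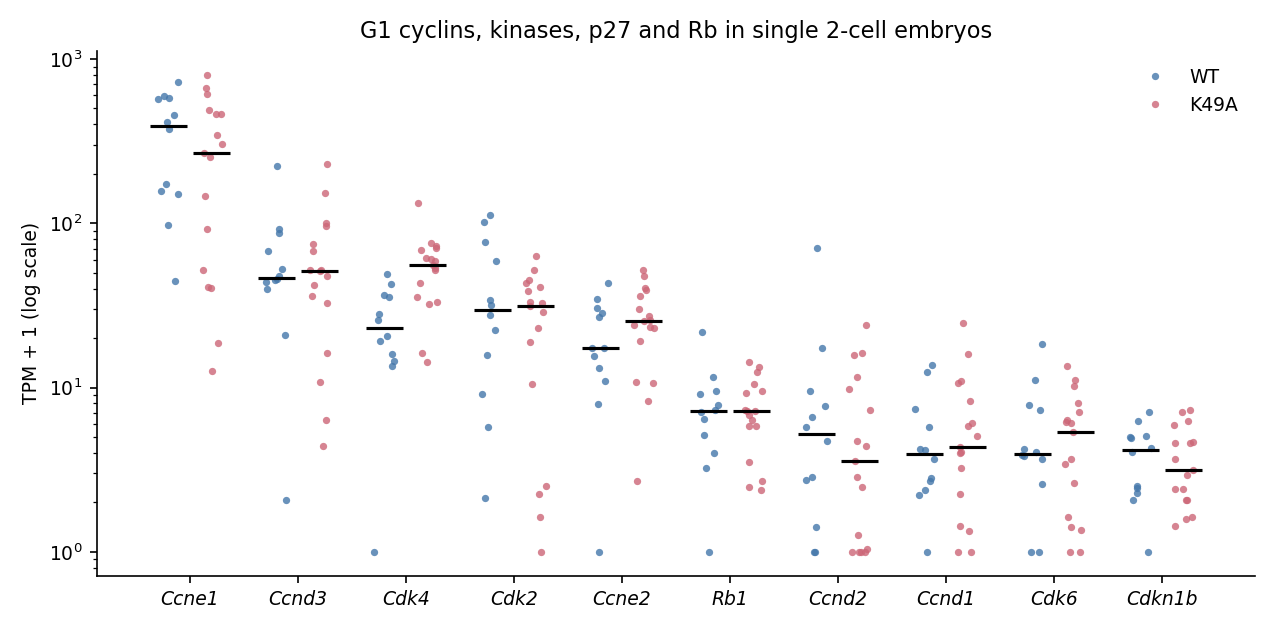
Level of each of the 10 genes in single embryos as TPM, with WT and K49A embryos in separate colours, a point per embryo and a bar at the group median. Ccne1 lies highest, with group medians of 392 TPM in WT and 266 TPM in K49A, and the 4 lowest genes all start at 0, with highest values from 6.26 TPM for Cdkn1b to 69.8 TPM for Ccnd2.

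No member passed the test between K49A and WT. Across the 12456 genes tested by edgeR's quasi-likelihood method with Benjamini-Hochberg adjustment, 2 genes (0.0161%) had an adjusted p under 0.05, and 0 of the 10 members did. At an unadjusted p under 0.05 stood 963 genes (7.73%) and 1 member, Cdk4. The 10 fitted differences were 5 above and 5 below zero, with a median log2 fold change (K49A over WT) of -0.04, while over all tested genes 58.4% were above zero and the median was 0.11.

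Cdk4, the catalytic partner of the D cyclins, had the largest fitted difference of the 10. Cdk4 lies at chr10:127063534-127067920 on the plus strand of GRCm38. In the 12 WT embryos its level ran from 0 to 55.0 CPM with a median of 20.5 CPM, and in the 17 K49A embryos from 18 to 141 CPM with a median of 51.6 CPM. The groups overlapped, but 14 of 17 K49A embryos lay above the WT median, 7 lay above every WT embryo, and 4 WT embryos lay below every K49A embryo. These were WT embryos 5, 10, 20 and 24, of which embryos 5 and 10 were not deep libraries. The means were 23.5 ± 15 CPM (SD, n = 12) in WT and 53.5 ± 34.3 CPM (SD, n = 17) in K49A. The log2 fold change was 1.18 ± 0.42 (SE), with a 95% interval of 0.37 to 2.00, an unadjusted edgeR p of 0.00725 and an adjusted p of 0.422, so it did not pass. By p it stood at place 214 of the 12456 genes.

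Within each plate column that held compared embryos of both groups, the Cdk4 difference had the same sign. These are the embryos in which Cdk4 was picked out for its difference, so the columns are not independent evidence for it. How often other genes keep the same sign across these columns was not tested. On the log2(CPM + 1) scale the K49A mean exceeded the WT mean by 1.28 in column 2, 1.02 in column 3, 2.7 in column 4, 0.81 in column 5 and 1.25 in column 6, each from 2 or 3 WT and 2 to 4 K49A embryos; column 1 had no compared embryo of K49A. In column 4, 1 of the 2 WT embryos was WT embryo 10, with 0 Cdk4 counts in a library that was not deep. The other, WT embryo 22, stood at 19.1 CPM. On the TPM scale Cdk4 ran from 0 to 48.2 in WT (median 22.2) and from 13.2 to 132 in K49A (median 54.6). There 15 of 17 K49A embryos lay above the WT median and 11 above every WT embryo. The correlation of Cdk4's log2(CPM + 1) with log10 total counts was 0.25 over 29 embryos and -0.12 over the 24 deep ones. Among the 12 alternatives other than leaving out single embryos, DESeq2 came nearest to a call, with a log2 fold change of 1.27 and an adjusted p of 0.0592, and limma-voom with sample quality weights gave the smallest difference, 0.54.

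Cdk4 shares 641 bases of exon with Tspan31, a tetraspanin gene on the opposite strand, and no source used here gives whether reads were counted by strand. The reads of both genes may therefore not be fully separate. Tspan31 was counted at 0 to 70.6 CPM in WT (median 29.2) and 0 to 115 CPM in K49A (median 47.8), with a log2 fold change of 0.51 ± 0.55 (SE, edgeR adjusted p = 0.921). Its part in the Cdk4 difference was not tested.

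Marker lists also had different medians in the groups: those of the oocyte, of the cells around it and of blood were higher in K49A, like Cdk4, and those of the 2-cell stage and of later stages were lower. The oocyte medians were 2040 CPM in WT and 2448 CPM in K49A, and the 2-cell stage medians 1083 and 675 CPM. A list of 11 cumulus and granulosa cell genes, the cells that surround the oocyte, summed to 0 to 24.5 CPM in WT (median 8.06) and 0 to 164 CPM in K49A (median 27), and all 11 were counted somewhere. A list of 7 blood cell genes summed to 10.9 to 54.5 CPM in WT (median 20.2) and 7.76 to 734 CPM in K49A (median 87.2). Of that list 5 were counted, among them the adult globin genes Hba-a1 and Hba-a2. The adult globin genes Hbb-bs and Hbb-bt were at 0 in every embryo. Of 6 genes of later embryo stages all were counted, at 38.5 to 115 CPM in WT (median 92.8) and 39.9 to 190 CPM in K49A (median 69.6). The part of these markers in the Cdk4 difference was not tested. A difference in level per cell and a difference in the number of cells of a type cannot be told apart in a whole-embryo library.

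Cdk6 (chr5:3341485-3531008, plus strand), the other partner of the D cyclins, ran from 0 to 18.2 CPM in WT and from 0 to 25.8 CPM in K49A, with medians of 10.4 and 11.7 CPM. The groups overlapped almost throughout, with 2 K49A embryos above every WT embryo. Its log2 fold change was 0.30 ± 0.48 (SE), and the 95% interval of -0.65 to 1.25 leaves room for a change of either sign (edgeR adjusted p = 0.955).

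Among the D cyclins, which tie the cell cycle to growth signals in somatic cells, none separated the groups. Ccnd3 (chr17:47505051-47599691, plus strand) ran from 1.60 to 386 CPM in WT and from 15.9 to 385 CPM in K49A, with medians of 89.4 and 75.9 CPM. Both groups thus spanned nearly the same wide range. Its log2 fold change was 0.01 ± 0.45 (SE, edgeR adjusted p = 0.999, 95% interval -0.88 to 0.90), and its sign turned under several alternatives. Ccnd1 (chr7:144929931-144939925, minus strand) ran from 0 to 37.6 CPM in WT and from 0 to 53.8 CPM in K49A, with a log2 fold change of 0.34 ± 0.62 (SE) that became -0.66 with limma-voom quality weights. Ccnd2 (chr6:127125162-127152193, minus strand) was the most scattered gene of the 10 within WT, at 0 to 54.8 CPM with a median of 4.67 CPM, against 0 to 27.5 CPM with a median of 4.05 CPM in K49A. Its log2 fold change of -0.57 ± 0.74 (SE) became 0.15 without WT embryo 8. The edgeR adjusted p was 0.966 for Ccnd1 and 0.934 for Ccnd2. The pseudogene Ccnd3-ps drew 17 counts over the 29 embryos, against 10591 for Ccnd3.

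Among the E cyclins, Ccne1 (chr7:38097984-38107534, minus strand) ran from 151 to 1299 CPM in WT with a median of 685 CPM, and from 8.25 to 1090 CPM in K49A with a median of 460 CPM. Only 4 of 17 K49A embryos lay above the WT median, while the ranges overlapped widely. The K49A embryos reached lower than any WT embryo. The lowest value was 1 count in K49A embryo 22, not a deep library, and K49A embryo 4, a deep library, stood at 39.1 CPM. The means of 619 ± 378 CPM (SD, n = 12) and 463 ± 333 CPM (SD, n = 17) gave a log2 fold change of -0.42 ± 0.44 (SE, 95% interval -1.28 to 0.45), which was not past the threshold (edgeR adjusted p = 0.918). Ccne2 (chr4:11191351-11204779, plus strand), the gene of the second E cyclin, ran from 0 to 81.4 CPM in WT and from 8.25 to 113 CPM in K49A, with medians of 42.5 and 53.7 CPM. Its log2 fold change was 0.15 ± 0.39 (SE, edgeR adjusted p = 0.979).

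Cdk2 (chr10:128697939-128705031, minus strand), the kinase of the E cyclins, ran from 2.41 to 205 CPM in WT with a median of 46.3 CPM, and from 0 to 109 CPM in K49A with a median of 56.0 CPM. The highest embryo was WT, yet 10 of 17 K49A embryos lay above the WT median, so the medians and the means were ordered oppositely. The means were 73.0 ± 68.3 CPM (SD, n = 12) in WT and 47.7 ± 31.8 CPM (SD, n = 17) in K49A, with a log2 fold change of -0.59 ± 0.51 (SE, 95% interval -1.58 to 0.40, edgeR adjusted p = 0.893).

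Cdkn1b (chr6:134920401-134925513, plus strand), the gene of the inhibitor p27, was low in both groups, at 0 to 14 CPM in WT and 0.840 to 16.8 CPM in K49A, with medians of 6.19 and 3.97 CPM. Its log2 fold change was -0.10 ± 0.48 (SE, edgeR adjusted p = 0.987). Rb1 (chr14:73183673-73325822, minus strand), whose protein is the substrate of these kinases, ran from 0 to 58.8 CPM in WT and from 13 to 47.8 CPM in K49A, with medians of 28.2 and 25.3 CPM. It varied least of the 10 within K49A, and its log2 fold change was -0.14 ± 0.36 (SE, edgeR adjusted p = 0.979). The K49A embryos lay wholly inside the WT range of Rb1, but its lower end was WT embryo 10 alone, not a deep library. The next lowest WT embryo, 9, stood at 14.5 CPM, and K49A embryo 15 lay below it at 13 CPM. Exons of Ccnd1, Ccnd3, Ccne2, Cdk2 and Rb1 also overlap exons of protein-coding genes on the opposite strand, so the caution on strand given for Cdk4 applies to them as well.

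**Figure D2:**
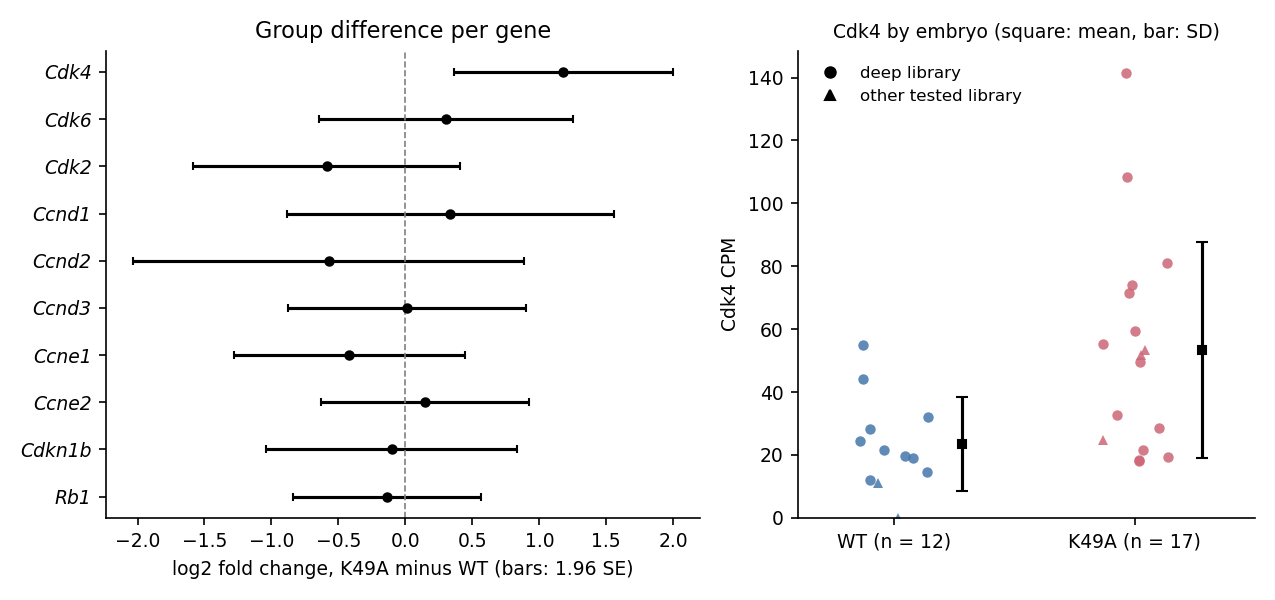
Log2 fold change (K49A over WT) of each of the 10 genes by edgeR, points with bars for the 95% interval, from 12 WT and 17 K49A embryos. The interval of Cdk4, 0.37 to 2.00, is the one that does not include zero, and its adjusted p was 0.422.

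The make-up of each family was compared within embryos, as the share of 1 member in the summed TPM of its family, which no scaling between libraries alters. The transcript length behind TPM was estimated for each library, however, and can alter a share. Set against each library's median gene, TPM over CPM ran from 0.256 to 2.40 for Cdk6 in WT and from 0.117 to 1.41 in K49A. For Ccne1 it ran from 0.804 to 1.06 in WT and from 0.772 to 1.11 in K49A. Embryos with under 10 counts of the gene were left out of these ratios. Ccnd3 made up 8.67% to 99.5% of D cyclin TPM in WT (median 87.3%) and 43.5% to 99.5% in K49A (median 85.7%). It was the highest D cyclin in 11 of 12 WT and 17 of 17 K49A embryos. The exception was WT embryo 5, which was not a deep library and in which Ccnd1 led. The mean shares of 78.0 ± 24.9% (SD, n = 12) and 79.4 ± 17.2% (SD, n = 17) differed by 1.40 percentage points (permutation test, 100000 resamples, 2-sided, p = 0.868), and by -4.90 points without WT embryo 5.

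Ccne1 made up 81.6% to 100% of E cyclin TPM in WT (median 95.0%) and 49.2% to 98.4% in K49A (median 90.0%). The share of 100% was that of WT embryo 10, not a deep library, with 0 Ccne2 counts. Ccne1 exceeded Ccne2 in 12 of 12 WT and 16 of 17 K49A embryos, and the 3 lowest shares were all K49A. The mean was 93.2 ± 5.37% (SD, n = 12) in WT and 85.4 ± 13.7% (SD, n = 17) in K49A, a difference of -7.84 points that did not pass (permutation test, p = 0.0666, adjusted over the 3 shares 0.164). Over the deep embryos the difference was -5.69 points (permutation test, p = 0.223).

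Cdk4 made up 57.2% to 100% of the summed Cdk4 and Cdk6 TPM in 11 WT embryos (median 88.5%) and 72.1% to 100% in 17 K49A embryos (median 92.7%). Both genes were at 0 in WT embryo 10, which has no share, and Cdk4 exceeded Cdk6 by TPM in all other embryos. By counts, WT embryo 20 had 27 of each. The shares of 100% were those of WT embryo 5 and K49A embryos 14 and 22, none a deep library. These had 0 Cdk6 counts and 14, 13 and 3 Cdk4 counts. The means of 84.1 ± 12.9% (SD, n = 11) and 90.8 ± 8.68% (SD, n = 17) differed by 6.70 points (permutation test, p = 0.11, adjusted over the 3 shares 0.164).

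**Figure D3:**
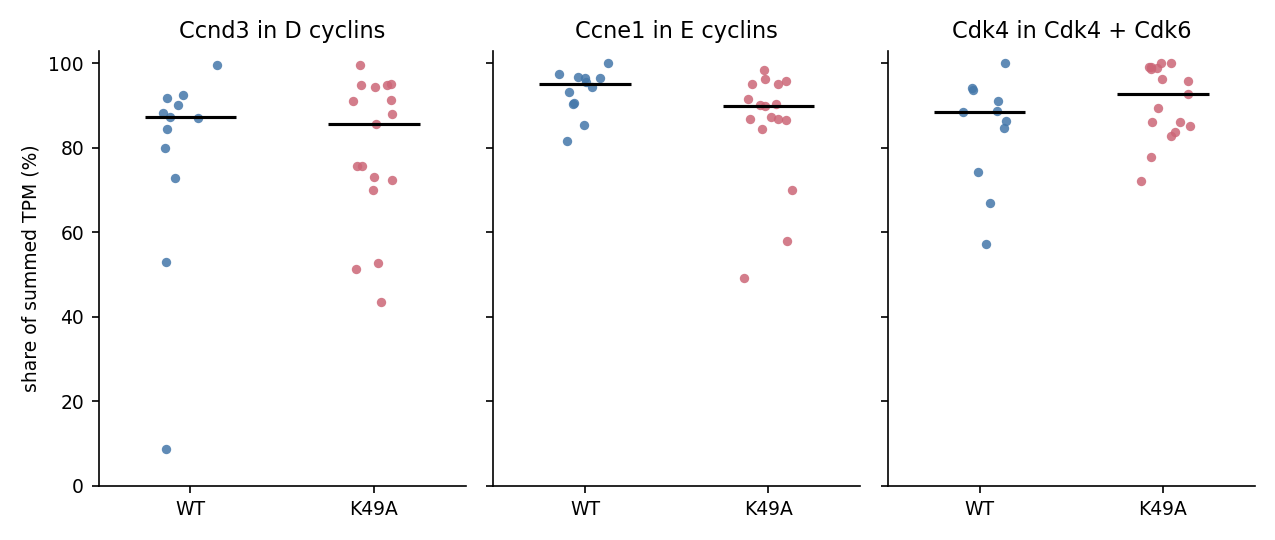
Share of 1 family member in the summed TPM of its family, in percent, for Ccnd3 among the D cyclins, Ccne1 among the E cyclins and Cdk4 among Cdk4 and Cdk6. Each point is an embryo and each bar the group median. The Ccne1 shares reach down to 49.2% in K49A and 81.6% in WT.

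Cdk2 and Ccne1, whose proteins work as a complex, went up and down together from embryo to embryo. This relation was picked out after the values of all 45 pairs of members had been seen. In WT embryo 24 Cdk2 stood at 205 CPM and Ccne1 at 904 CPM. In K49A embryo 4, also a deep library, Cdk2 stood at 3.41 CPM and Ccne1 at 39.1 CPM. On the log2(CPM + 1) scale, over 29 embryos, Pearson's r was 0.82 and Spearman's rho 0.82 (permutation p = 1e-05 for each, the smallest that 100000 permutations can give, adjusted over 45 pairs 0.00045). It was the single pair of the 45 whose adjusted p was under 0.05 by both measures, while 41 of the 45 pairs had a positive r. By rho over the 29 embryos, however, Cdk2 ranked more like Zscan5b (0.86) and Cdt1 (0.85) than like Ccne1. Ccne1 in turn ranked more like Zscan5b (0.94) and Pank3 (0.91) than like Cdk2. The covariation was thus not particular to these partners. How often other gene pairs correlate as strongly was not tested.

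The relation of Cdk2 and Ccne1 was also present in parts of the data. Pearson's r was 0.79 within WT and 0.84 within K49A, 0.60, 0.98, 0.96 and 0.84 within plate columns 3 to 6, and 0.74 without K49A embryo 22 and WT embryo 5, the 2 embryos farthest from the median of Cdk2. Both genes were higher in deeper libraries over all 29 embryos, with an r to log10 total counts of 0.69 for Cdk2 and 0.67 for Ccne1. Over the 24 deep embryos these were 0.18 and 0.43, and the r between the genes was 0.78 there (rho 0.78), or 0.65 when K49A embryo 4 was left out as well. The part of depth in what remained was not tested.

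Cdk2 and Cdkn1b tended the opposite way, but less firmly. Over 29 embryos r was -0.36 (permutation p = 0.0588, adjusted over 45 pairs 0.161) and rho -0.46 (permutation p = 0.0133, adjusted 0.210), and r was -0.29 without the 2 embryos farthest from the median of Cdk2. Over the 24 deep embryos r was -0.61 and rho -0.66 (permutation test, adjusted p = 0.0220 and 0.0130), and r was -0.52 without K49A embryo 4, where Cdkn1b reached 16.8 CPM. On the TPM scale over 29 embryos r was -0.17 (permutation p = 0.383). The relation thus depended on the embryos and the scale used, and Cdkn1b had few counts in most embryos.

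In the other pairs with an adjusted p under 0.05 by Pearson's r, Spearman's rho did not pass and r was lower over the deep embryos. Ccne2 and Rb1 had an r of 0.75 over 29 embryos (permutation test, adjusted p = 0.0475) but a rho of 0.27, and r was 0.28 without WT embryo 10 and K49A embryo 22, and 0.20 over the deep embryos. Cdk6 and Ccne2 had an r of 0.72 (permutation test, adjusted p = 0.00135) with a rho of 0.43. Its r was 0.66 without WT embryos 5 and 10 and 0.85 within K49A, and 0.19 over the deep embryos.

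**Figure D4:**
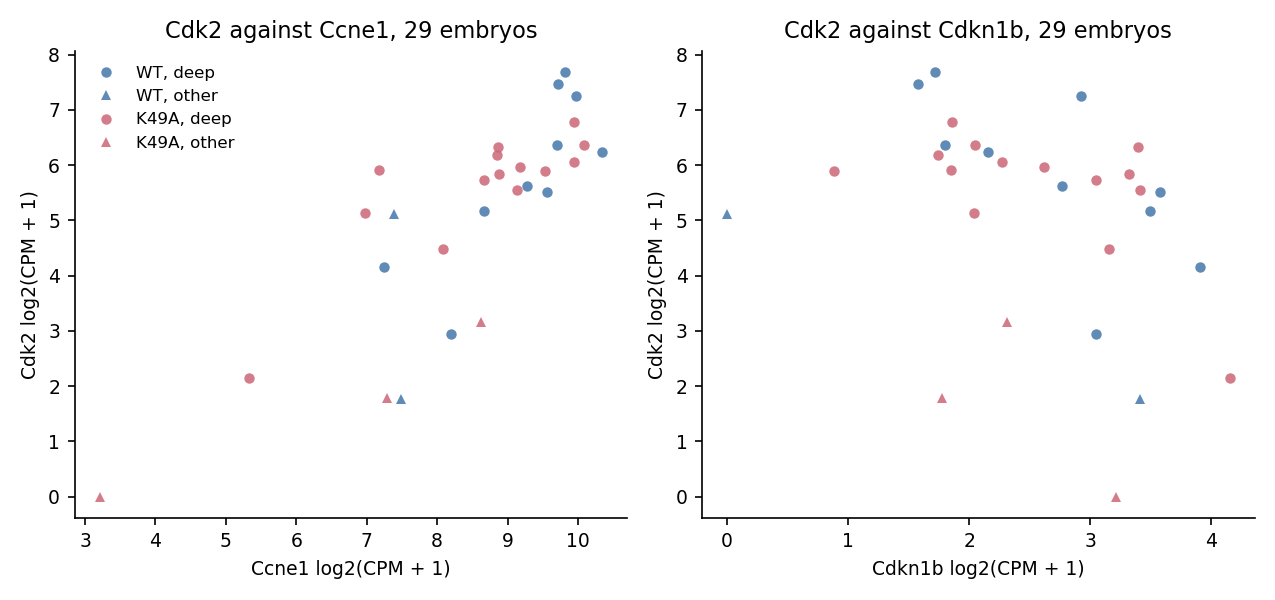
Cdk2 against Ccne1 and against Cdkn1b in single embryos, both axes as log2(CPM + 1), with WT and K49A embryos in separate colours. The points for Ccne1 rise along 1 band shared by both groups (r 0.82 over 29 embryos), and those for Cdkn1b scatter downwards (r -0.36).

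The genes whose levels over the 29 embryos ranked most like those of each member were read off by Spearman's rho among 8648 genes, as a description. For Ccne1 these were Zscan5b (rho 0.94) and Pank3, a pantothenate kinase gene (0.91). Zscan5b, a zinc finger gene, also led the list for Cdk2 (0.86), followed by Cdt1, which licenses replication origins (0.85). Likeness was weaker for the remaining members: Rassf7 (0.73) and Ubl4a (0.71) for Cdk4, Tfap2b (0.77) and Myo18a (0.74) for Cdk6, Camk2g (0.73) and Gm45553 (0.72) for Ccnd3, Dip2b (0.69) and Bhlhe41 (0.65) for Ccnd1, Abhd4 and Zbtb46 (both 0.81) for Ccne2, and Cog8 (0.75) and Cip2a (0.74) for Rb1. Ccnd2 and Cdkn1b had a mean under 10 CPM over the 29 embryos and were not ranked.

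Of 45 other listed genes of the G1/S pathway 41 were tested, and 0 passed in either direction by edgeR, where 0.0161% of all tested genes passed, so that count is near the background. Their fitted differences were 21 above and 20 below zero with a median log2 fold change of 0.03, and 2 (4.88%) had an unadjusted p under 0.05, against 7.73% of all tested genes. These were Cdkn1a, the gene of the inhibitor p21, at 1.05 ± 0.48 (SE, edgeR adjusted p = 0.564), and Tyms, the thymidylate synthase gene, at 1.26 ± 0.55 (SE, edgeR adjusted p = 0.543).

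By role, both tested CIP/KIP inhibitors besides Cdkn1b had positive fitted log2 fold changes, with Cdkn1c at 1.27 ± 0.66 (SE). The 3 tested INK4 inhibitors, which act on Cdk4 and Cdk6, were all below zero, among them Cdkn2c at -0.45 ± 0.44 and Cdkn2a at -0.56 ± 0.72 (SE). Of 9 tested E2F and DP factor genes 8 were above zero, with a median of 0.39, among them E2f2 at 0.75 ± 0.43 and Tfdp2 at 0.63 ± 0.38 (SE). Of 10 E2F target genes 3 were above and 7 below zero, with a median of -0.20; Dbf4, which activates the replication kinase Cdc7, stood at 0.56 ± 0.31 (SE). Over all tested genes 58.4% were above zero, with a median of 0.11, and the roles hold few genes each. None of the genes in these roles passed the test by edgeR.

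The remaining roles were smaller. The pocket proteins related to Rb1 stood at 0.23 ± 0.64 for Rbl2 and -0.15 ± 0.45 (SE) for Rbl1 on the log2 scale. Among 4 genes that activate the kinases, Cdk7 stood at -0.46 ± 0.40 and the phosphatase gene Cdc25a at 0.29 ± 0.40 (SE). Among 8 ubiquitin ligase genes, 3 were above and 5 below zero, with Cul3 at -0.60 ± 0.38 and Skp1a at -0.39 ± 0.35 (SE). Myc stood at 0.75 ± 0.65, Mycn at -0.15 ± 0.68 and the A cyclin gene Ccna2 at -0.31 ± 0.43 (SE). None of these passed the test by edgeR either, and Cdkn2b, E2f3, Ccna1 and Mycl were too low to be tested.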

How the data were processed

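Per the labels' protocols, single 2-cell embryos were frozen in plate wells and read by Smart-seq2. The submitters' processing notes name RSEM 1.3.3, STAR 2.7.8a, cutadapt 2.3 and FastQC 0.11.8, and the builds GRCm38 and mm10. The annotation and any strand setting are not given in the sources used here. The authors deposited RSEM expected counts for 55421 genes and 5 transgene rows with 0 counts; the deposited values were all whole. They also deposited TPM and a plate layout, whose rows and columns were read from the deposited table. The table named for FPKM repeated the TPM values byte for byte and was left out.

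Embryos with at least 100000 counts were kept (12 WT, 17 K49A); 19 wells, at most 39135 counts each, were left out. edgeR 4.0.16 (TMM, filterByExpr, robust quasi-likelihood fit without covariates) was fitted to 12456 genes with p-values adjusted by Benjamini-Hochberg, threshold 0.05, after a test on simulated data; SE is the log2 fold change over the square root of F. DESeq2 1.42.0 and limma 3.58.1 served as alternatives. CPM uses TMM library sizes. Shares and correlations used 100000 permutations (scipy 1.17.1), with a pseudocount of 1. Gene positions are from GENCODE M21 (GRCm38) and start regions from RefSeq (GRCm38.p6).

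Text names all 10 members, the 2 genes of each pathway role with the smallest p, any gene past the threshold, and the 2 genes most like each member with a mean of at least 10 CPM. Tspan31 and Ccnd3-ps were named after their values were seen. Cdk4 was likewise picked out for closer description after the values of all 10 members had been seen. Members and lists were chosen with earlier results of these data known.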

Additional observations from a re-analysis of the deposited data

Results flagged for a closer look

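The 19 wells below the minimum of 100000 counts, which enter no comparison, still held counts for some of the genes. Ccne1 had 24 counts summed over these wells, from 5 libraries, of which 19 were in WT embryo 3. Ccnd3 had 6 counts from 2 libraries, the most, 4, in WT embryo 18. Both sums were above 3 counts, the cutoff set for flagging them, and each of the other 8 genes had 3 or fewer.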

How the results depend on the processing

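No member and no pathway gene passed the threshold under any of 12 alternatives or with any 1 of the 29 embryos left out; a mean of at least 10 CPM left 8 members to test. Over the whole table DESeq2 called 74 genes higher and 11 lower, limma-voom 26 and 14, limma on log2(TPM + 1) 2 and 1, the fit without a low-count filter 661 and 465, and the others at most 2 and 4. The median log2 fold change of all genes ran from 0.03 to 0.22 over the alternatives. The Cdk4 log2 fold change ran from 0.54 to 1.49 and stayed positive under all of them, and from 1.02 to 1.36 (edgeR adjusted p 0.304 to 0.640) with embryos left out. It was 1.03 in the deep embryos and, chosen after seeing the data, 1.07 without 3 K49A embryos titled "dot", a term the labels do not explain. The 9 replicate numbers found in both groups did not pair embryos (correlation -0.27 to 0.22, median -0.01; 1 of 9 best with its own number); with them as a block 0 members were called and Cdk4 was 1.49 (edgeR adjusted p 0.9998).

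Some signs turned, all for differences that had not passed. The Ccnd3 log2 fold change became -0.016 with limma-voom, -0.086 on TPM, -0.041 without a filter, -0.11 in deep embryos, -0.10 with plate column and -0.30 without "dot" embryos. Ccnd1 became -0.66 with limma-voom, and Cdk6 -0.10 and Rb1 0.052 on TPM. With the block, Ccnd2 became 0.061, Ccne2 -0.068, Rb1 0.019 and Rbl1 0.13; with the same embryos unblocked, Ccne2 became -0.12 and Rbl1 0.42. Cdc25a became -0.0091 in deep embryos. With 1 embryo left out, Ccnd2 ran from -0.88 to 0.15, Ccnd3 from -0.24 to 0.40, Cdkn1b from -0.29 to 0.060, Rb1 from -0.26 to 0.0027 and Mycn from -0.43 to 0.054. The difference in Ccnd3 share was -0.54 points in deep embryos and -4.90 to 3.64 with embryos left out. That in Ccne1 share ran from -8.91 to -5.58, with the lowest p, 0.0381, without WT embryo 19, and an unadjusted p under 0.05 also without K49A embryo 5, 11 or 23. That in Cdk4 share ran from 4.01 to 8.29. The causes were not tested.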
